A study of Mus musculus with 2 samples.

Results

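The tumour suppressor p53, encoded by Trp53 in the mouse, is a transcription factor that is kept at low levels by the ubiquitin ligase Mdm2 and its partner Mdm4. Stress such as DNA damage releases it, and it then binds paired half-sites in DNA and switches on genes that halt the cell cycle, repair DNA, adjust metabolism or start cell death. Mdm2 and the phosphatase Ppm1d are themselves p53 targets and close feedback loops on it. U19/Eaf2, a partner of the ELL transcription elongation factors whose gene responds to androgen, is regarded as a prostate tumour suppressor and is reported to act with p53. Described here are p53 regulators and p53 target genes in a wild-type ventral prostate sample and in one labelled U19/Eaf2 knockout.

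The list named 34 genes, and 33 of them had a probe set whose platform annotation gave exactly 1 gene symbol, out of 18193 such genes on the array. These 33 genes held 68 of the 45101 probe sets. Trp53 was not analysed here, since no probe set with that single symbol was listed in the annotation used. The list was drawn up by function. It also holds 3 relatives of p53 targets, Ccng2, Sesn3 and Trp53inp2, which are known less as p53 targets than for regulation by other factors.

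The series compared the ventral prostates of male C57BL/6J mice aged 3 months that were U19/Eaf2 +/+ (wild type) or U19/Eaf2 -/- (knockout), with no treatment named. Each group held 1 sample on 1 Affymetrix array, so no test was possible, and every value below compares these 2 arrays and not the genotypes. Both samples are named as prostates, in the plural, and no label used here says if RNA from more than 1 animal was pooled, how the deletion was made or which cells carry it.

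A signal is the deposited brightness of a probe set in linear units. Each gene was read from its brightest probe set, by mean log2 signal, and the others served as a check. The floor was a signal of 166, the median of all non-control signals, and a gene entered when at least 1 array reached it. Lower values were raised to the floor, and the ratio of such a gene is a bound. The log2 ratio is that of the array labelled knockout over the wild-type array. The 2 arrays differed in several ways beside the p53 genes. Eaf2 itself read 691 in the wild type and 702 in the sample labelled knockout, and since the labels do not give the deleted part of the transcript, this neither checks nor contradicts the genotype. The 3' over 5' signal ratio of Actb, a guide to RNA degradation, was 1.25 and 1.65, and that of Gapdh was 0.71 and 0.85. The prostate products Spink1, Msmb and Pbsn read between 26812 and 64718 on both arrays, while the 5 seminal vesicle genes with a probe set were all below the floor. Of the 5 measured genes on the prostate list 2 were higher and 3 lower, with a median log2 ratio of -0.17. Smooth muscle markers were lower in 9 of 10, with a median log2 ratio of -0.54 and a summed signal of 54976 against 40816, and fibroblast markers were lower in 9 of 10, with 25724 against 21869. Of 5 measured adipocyte markers 3 were higher, with a summed signal over 6 genes of 1579 against 3187. Urothelial markers were lower in 3 of 4, leukocyte markers higher in 3 of 5, endothelial markers in 3 of 7 and basal markers in 2 of 3, and luminal markers had a median log2 ratio of -0.02. The urothelial Upk1b had a log2 ratio of -0.58 in its brightest probe set and of -2.27 to -2.03 in its other 3. Of the basal list Krt5 read 772 and 504 and Trp63 594 and 633, while 3 of its 6 genes were below the floor on both arrays, as were 3 of 10 endothelial and 4 of 9 leukocyte genes. In whole tissue, fewer cells of a type and less RNA per cell cannot be told apart. The part of these differences in the p53 results was not tested.

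DNA letters that match the p53 half-site consensus stand close to the start of several members. RefSeq promoter windows of build GRCm38.p6, each of 300 bases with 250 before the start, were held for 26 of the 34 genes. They were searched for the p53 half-site consensus of 10 bases, which is 3 purines, C, 2 bases of A or T, G and 3 pyrimidines, and which reads the same on both strands. A half-site lay in a window of 9 of these 26 genes (34.6%), namely Aen, Ccng1, Cdkn1a, Ei24, Mdm2, Polk, Ppm1d, Sesn1 and Trp53. Over all 27025 genes with a window it was 9.55%. A match describes letters and is not a shown site. The stretches below were chosen because they lie before a listed start of classic p53 targets or feedback genes whose values follow. They are written 5′ to 3′ on the gene's strand, with the half-site in capitals.
Cdkn1a, chr17:29090866-29090977, plus strand: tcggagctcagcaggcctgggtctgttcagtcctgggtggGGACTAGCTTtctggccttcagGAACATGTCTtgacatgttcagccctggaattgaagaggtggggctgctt
Mdm2, chr10:117710895-117710984, minus strand: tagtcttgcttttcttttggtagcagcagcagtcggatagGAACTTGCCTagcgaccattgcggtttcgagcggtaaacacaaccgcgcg
Ccng1, chr11:40755422-40755511, minus strand: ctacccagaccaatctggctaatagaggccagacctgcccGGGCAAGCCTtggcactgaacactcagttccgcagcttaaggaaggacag
Ppm1d, chr11:85311082-85311171, plus strand: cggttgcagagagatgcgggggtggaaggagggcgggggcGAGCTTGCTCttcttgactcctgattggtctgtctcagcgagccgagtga
Sesn1, chr10:41887226-41887315, plus strand: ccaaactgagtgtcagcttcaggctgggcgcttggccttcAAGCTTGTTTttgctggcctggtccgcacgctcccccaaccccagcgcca
Aen, chr7:78895897-78895986, plus strand: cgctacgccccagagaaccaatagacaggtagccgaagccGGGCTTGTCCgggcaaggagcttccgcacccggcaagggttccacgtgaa

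The Cdkn1a stretch, before the upstream of the gene's 2 listed starts, holds 2 half-sites that are 12 bases apart. A pair of exact matches with a spacer of at most 13 bases was held by 24 of all 32851 windows. Of the 31 windows of members only 1, that of Cdkn1a, held such a pair. The 10 bases directly after the downstream Cdkn1a half-site match the consensus but for their first base, and the exact search did not count them. In Mdm2 the half-site began 186 bases before the start, in Ccng1 185, in Sesn1 173, in Ppm1d 132 and in Aen 121. The Aen distance is to the downstream of 2 listed starts, and the same half-site lies just after the upstream one. The 8 measured genes with a half-site had log2 ratios from -0.56 to 0.27, with 5 higher and 3 lower on the array labelled knockout. The 14 measured genes with a window and no half-site ranged from -0.88 to 0.505, with 7 higher and 7 lower. No window was held for Zmat3, Trp53inp1, Xpc, Rrm2b, Ddb2, Perp, Tnfrsf10b or Pmaip1. The 3 members past 1.5-fold as higher, with log2 ratios up to 0.89, were thus in neither range.

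Among the p53 genes no common direction was seen. Of the 33, 5 stayed below the floor on both arrays and 28 entered, 26 of them measured on both arrays and 2, Sesn2 and Fas, as bounds. On the array labelled knockout 17 of the 28 read higher and 11 lower, beside 5482 higher and 6189 lower of all 11671 genes that entered. Their median log2 ratio was 0.12 with an SD of 0.399 over genes, against a median of -0.03 and an SD of 0.373 over all genes. None of the 28 differed by 2-fold, where 0.591% of all genes passed 2-fold as higher and 0.883% as lower. At 1.5-fold, 3 members were higher (Zmat3, Trp53inp1 and Xpc) beside 4.69% of all genes, and 1 was lower (Sesn3) beside 6.26%. The 4 together made 14.3% of the members that entered, near the 11.0% of all genes past 1.5-fold in either direction. That split of all genes, 547 higher and 731 lower, was 632 and 556 after quantile normalization and 753 and 510 after loess, while no member with a value changed its sign under these scalings.

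**Figure D1:**
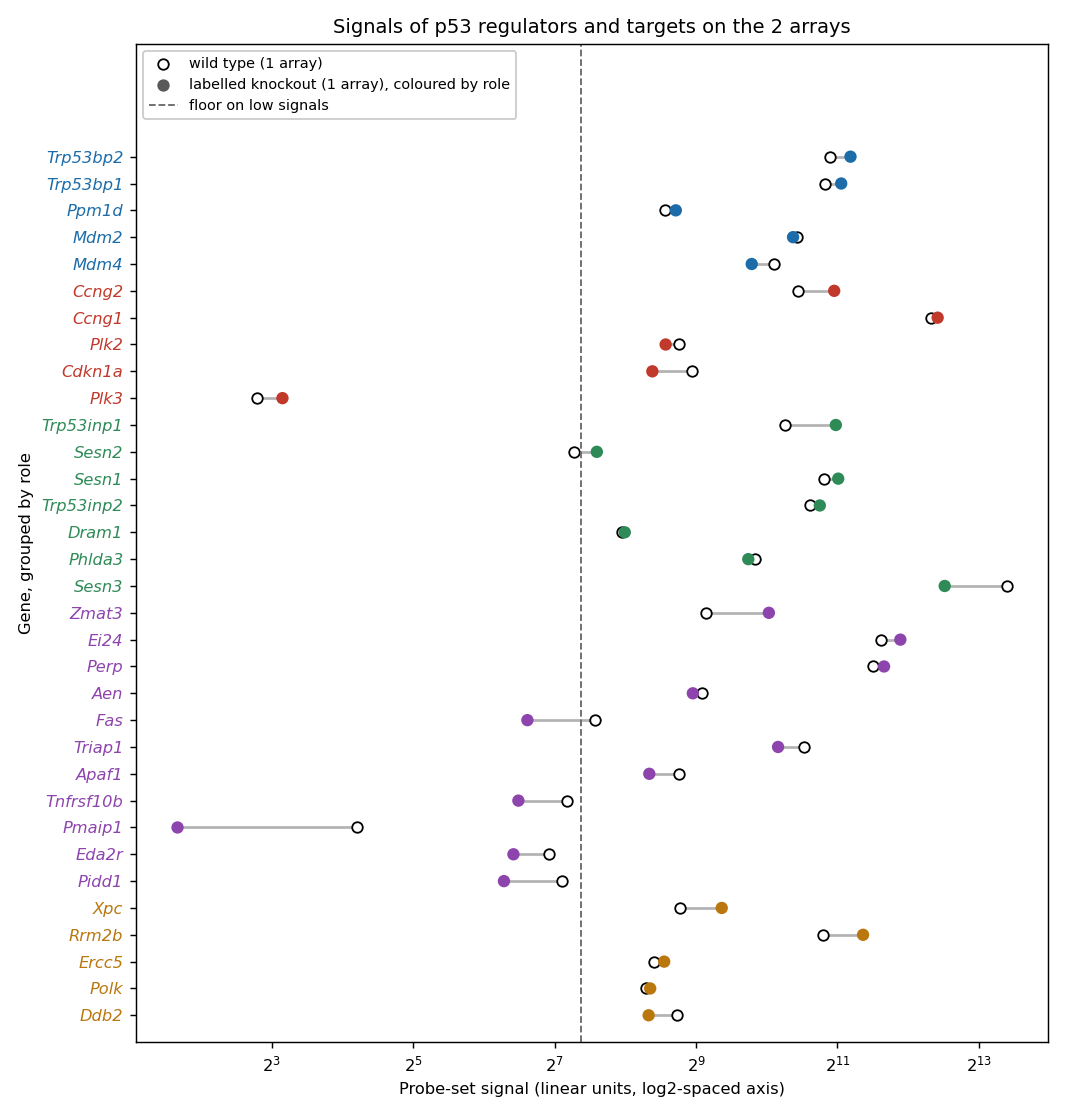
Signals of the 33 genes with a probe set on the wild-type array (open circles) and on the array labelled knockout (filled, coloured by role), on a log2-spaced axis with the floor of 166 dashed. Each circle is 1 array. The widest gaps above the floor belong to Zmat3, Trp53inp1 and Sesn3, and 5 genes lie left of the floor on both arrays.

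**Figure D2:**
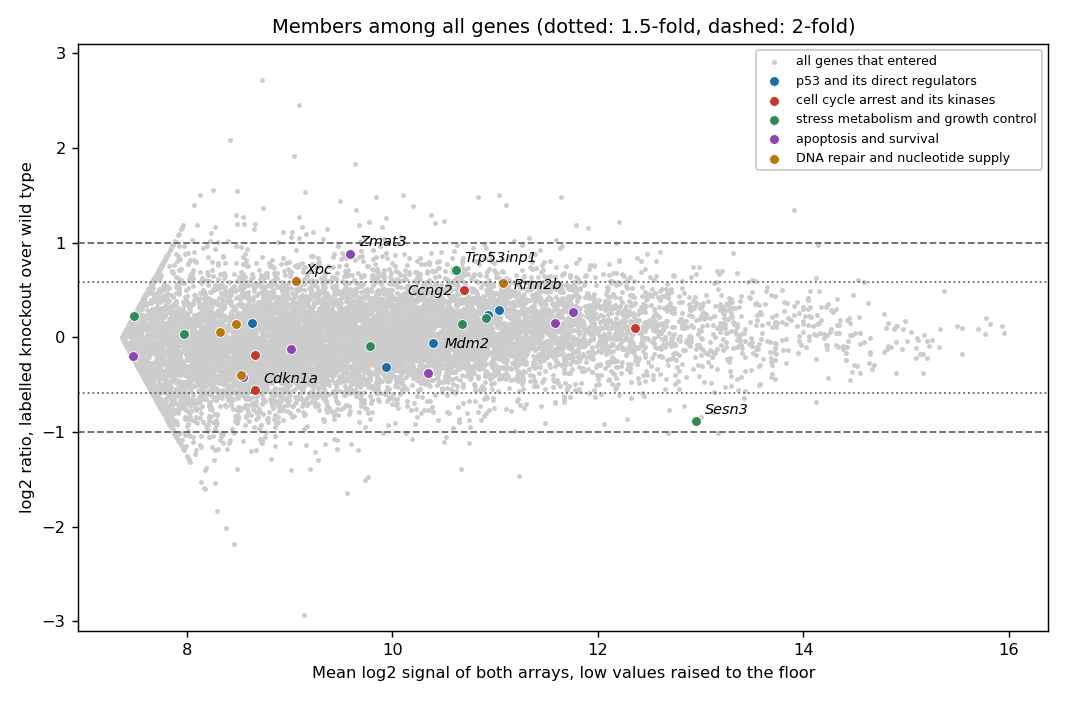
Log2 ratio against mean log2 signal for all 11671 genes that entered (grey) and the 28 members among them (coloured by role), each point 1 gene. All 28 members lie between the dashed 2-fold lines, and 4 lie beyond the dotted 1.5-fold lines.

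The direct regulators of p53 differed by less than 1.5-fold in their brightest probe sets. Ppm1d and Trp53bp2 were higher on the array labelled knockout in all their measured probe sets and Mdm2 lower, while Mdm4 and Trp53bp1 had opposite ones. Their median log2 ratio, 0.16, was -0.11 with the median over probe sets and -0.036 without probe sets of the suffixes _s_at, _x_at and _a_at. Mdm2, the ligase that marks p53 for destruction, read 1378 in the wild type and 1325 in the sample labelled knockout in its brightest probe set, a log2 ratio of -0.06. Its other measured probe set read 867 and 658, a log2 ratio of -0.40. Both placed Mdm2 lower on the array labelled knockout, the latter by 1.32-fold. Mdm4, the Mdm2 relative that blocks p53's activation domain, read 1097 and 884, 1.24-fold lower. Another Mdm4 probe set had a log2 ratio of -0.23, and a dim one, at 41.4 and 177, went the other way.

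Ppm1d, the phosphatase Wip1 that removes activating phosphates from p53 and its kinases, read 377 and 420 in the brighter of its probe sets, 1.11-fold higher. The dimmer one read 197 and 303, a log2 ratio of 0.62. Both probe sets were higher on the array labelled knockout. Trp53bp2, which encodes the p53-binding protein ASPP2, read 1898 and 2328 in one probe set, a log2 ratio of 0.29, and 965 and 996 in the other, a log2 ratio of 0.05. Trp53bp1, the DNA-break adaptor 53BP1, read 1807 and 2125 in its brightest probe set, 1.18-fold higher, but its 6 probe sets ran from -0.58 to 0.50 on the log2 scale, with 3 opposite to the brightest. The direction of Trp53bp1 therefore depended on the probe set.

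Among genes of cell cycle arrest, Cdkn1a was lower and Ccng2 higher on the array labelled knockout, both just short of 1.5-fold. Cdkn1a, the cyclin-dependent kinase inhibitor p21 and the best known arrest target of p53, read 491 in the wild type and 334 on the array labelled knockout, 1.47-fold lower, and 7.21% of all genes had a lower ratio. Its other probe set, at 12.3 and 21.6, was far below the floor and gave no ratio. Ccng2, an unconventional cyclin of non-dividing cells, read 1398 and 1984 in one probe set, 1.42-fold higher, and 1410 and 1636 in the other, a log2 ratio of 0.21. Both Ccng2 probe sets were thus higher on the array labelled knockout.

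Ccng1, the cyclin G1 gene and a p53 target in many tissues, read 5107 and 5470 in its brightest probe set, a log2 ratio of 0.10. Its other probe sets had log2 ratios of -0.06 and -0.42, so that the brightest stood against the rest. The stress-induced kinase Plk2 read 433 and 380, a log2 ratio of -0.19, in the only probe set that entered. Plk3, another polo-like kinase, read 6.95 and 8.88 and was not above the floor on either array.

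Genes of stress metabolism held the member furthest down and one of the members furthest up. Sesn3, a sestrin that restrains the growth kinase mTORC1, read 10794 in the wild type and 5862 in the sample labelled knockout, a log2 ratio of -0.88 or 1.84-fold lower, in probe set 1453313_at. Only 1.45% of all genes had a lower ratio. Its other probe set, 1449303_at, read 2593 and 2846, a log2 ratio of 0.13, in the opposite direction. The sestrin Sesn1, a direct p53 target, read 1793 and 2064, a log2 ratio of 0.20, with -0.05 and 0.37 in its other probe sets that entered. Sesn2, which senses leucine for mTORC1, read 155 and 194 in its brighter probe set, a bound of at least 1.17-fold higher, and 142 and 170 in the dimmer one, likewise a bound. The 3 sestrins did not share a direction in their brightest probe sets.

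Trp53inp1, a nuclear stress protein that p53 induces and that promotes its apoptotic activity, read 1227 in the wild type and 2016 in the sample labelled knockout in probe set 1416926_at, a log2 ratio of 0.72 or 1.64-fold higher. Its dimmer probe set, 1416927_at, read 236 and 227, a log2 ratio of -0.05. Trp53inp2, its relative in autophagy, showed the same pattern at a smaller size, with a log2 ratio of 0.15 at signals of 1557 and 1723 and one of -0.27 at 229 and 189. For both genes the brighter probe set was higher and the dimmer one lower. The Akt inhibitor Phlda3 read 911 and 855, a log2 ratio of -0.09, and Dram1, a lysosomal protein of p53-driven autophagy, 249 and 255, a log2 ratio of 0.03. Each was read by a single probe set.

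In the group of cell death and survival, Zmat3 stood highest of all members. Zmat3, a zinc finger RNA-binding protein and direct p53 target, read 566 in the wild type and 1046 in the sample labelled knockout, a log2 ratio of 0.89 or 1.85-fold higher, and 0.917% of all genes had a higher ratio. It has 1 probe set with its single symbol, 1449353_at, so that no other probe set bears on it. Ei24, a membrane protein of the endoplasmic reticulum, read 3149 and 3795, a log2 ratio of 0.27, and Perp, a desmosomal protein that p53 and p63 control, 2913 and 3234, a log2 ratio of 0.15.

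Apaf1, the core of the apoptosome that activates caspase-9, was lower in both of its probe sets. It read 434 in the wild type and 324 in the sample labelled knockout in the brighter one, 1.34-fold lower, and 263 and 124 in the dimmer one, at least 1.59-fold lower. Triap1, a small mitochondrial survival factor, read 1481 and 1144, 1.29-fold lower in its single probe set. Aen, an exonuclease induced by p53 in apoptosis, read 540 and 496, a log2 ratio of -0.12, and -0.50 in its other probe set that entered.

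The death receptors, Pmaip1 and Pidd1 were dim on both arrays. Fas, the receptor of Fas ligand, read 190 in the wild type and 98.0 in the sample labelled knockout, at least 1.15-fold lower. The receptors Tnfrsf10b (144 and 89.7 in the brighter probe set) and Eda2r (122 and 85.5), the BH3-only protein Pmaip1 or Noxa (18.4 and 3.17) and the caspase-2 adaptor Pidd1 (138 and 77.9) were below the floor on both arrays and gave no ratio. All 5 read dimmer on the array labelled knockout, but with no floor 10148 of all 18193 genes did so too. The median signal over all probe sets was 177 in the wild type and 154 on the array labelled knockout.

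Of the 5 DNA repair and nucleotide supply genes, Xpc, Polk and Ercc5 read higher on the array labelled knockout, Ddb2 lower, and Rrm2b differed in direction between its probe sets. Xpc, the damage sensor of global nucleotide excision repair, read 436 in the wild type and 659 in the sample labelled knockout, a log2 ratio of 0.60 or 1.51-fold higher, in its single probe set. Ddb2, which recognises ultraviolet lesions ahead of Xpc, went the other way at 425 and 322, 1.32-fold lower, and its other probe set had a log2 ratio of -0.11. The neighbours in this repair step therefore had opposite directions on these arrays.

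Rrm2b, the p53-induced ribonucleotide reductase subunit p53R2, read 1772 and 2633 in its brightest probe set, a log2 ratio of 0.57 or 1.49-fold higher. Its other 3 probe sets all went the opposite way, with log2 ratios of -0.03 at 1390 and 1358, -0.43 at 483 and 359, and -0.73 at 422 and 254. No direction can be given for Rrm2b from these arrays. Polk, a translesion polymerase, read 314 and 327 in its brighter probe set, a log2 ratio of 0.06, with 0.30 in the other. Ercc5, the repair nuclease XPG, read 340 and 375, a log2 ratio of 0.14.

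**Figure D3:**
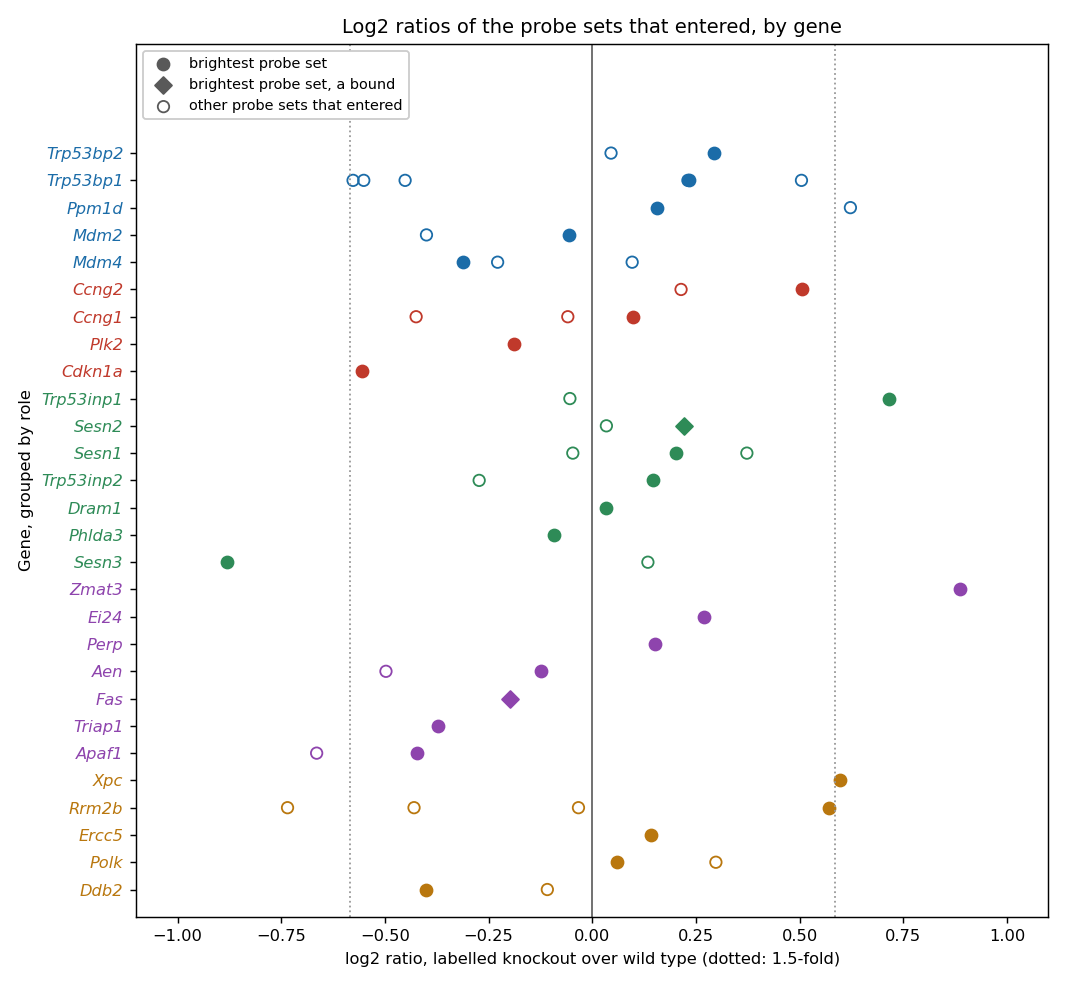
Log2 ratios of the 54 probe sets that entered, by gene and coloured by role, the brightest filled (a diamond marks a bound) and the others open, with 1.5-fold dotted. Rrm2b and Trp53bp1 spread across 0, Apaf1 and Ccng2 keep to one side, and Zmat3 and Xpc rest on 1 probe set each.

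How far a single probe set can be trusted was read from genes with several. Of the 28 members 17 had at least 2 probe sets that entered, and in 9 of these (52.9%) they all shared a sign, against 42.6% of the 5172 such genes on the array. The 9 were Mdm2, Aen, Apaf1 and Ddb2, lower on the array labelled knockout, and Ppm1d, Trp53bp2, Ccng2, Sesn2 and Polk, higher. The 8 with an opposite probe set were Mdm4, Trp53bp1, Ccng1, Sesn1, Sesn3, Trp53inp1, Trp53inp2 and Rrm2b. Within a gene, the log2 ratios of probe sets measured on both arrays had an SD of 0.391 over 15 members and of 0.357 over all 4497 such genes. Of the 4 members past 1.5-fold, Sesn3 and Trp53inp1 had an opposite probe set and Zmat3 and Xpc had no other to compare. This spread between probe sets holds nothing of the variation between mice or tissue samples.

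Genes around these members were read from 2 further lists. Of 29 listed gene symbols for kinases, acetylases, ligases and other modifiers upstream of p53, 28 had a probe set and 26 entered. On the array labelled knockout 21 read higher and 5 lower, with a median log2 ratio of 0.15, where 47.0% of all genes read higher. None passed 1.5-fold as higher, beside 4.69% of all genes, and 1 passed it as lower, beside 6.26%. That was Pml, the organiser of nuclear bodies, at 634 and 412, with all 3 of its probe sets lower. The highest were the p53 kinase Hipk2, at 2559 and 3709, a log2 ratio of 0.54 with 2 of its other probe sets opposite, and Ing1, a reader of histone marks, at 0.495 with 1 opposite. The damage kinases Atm and Atr had log2 ratios of 0.32 and 0.31, and the acetylase Crebbp had -0.40, an opposite probe set being found for Atr and for Crebbp. Most modifiers with several probe sets that entered had an opposite one, as did most such genes on the array.

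Of 49 other reported p53 target genes 43 had a probe set and 38 entered, with 13 higher and 25 lower and a median log2 ratio of -0.12. At 1.5-fold, 2 were higher and 3 lower, together 13.2% of the 38, near the 11.0% of all genes. Bcl6, a transcriptional repressor, read 544 in the wild type and 1236 in the sample labelled knockout, 2.27-fold higher, and Polh, a translesion polymerase, 420 and 711, 1.69-fold higher, each with no second probe set that entered. The Polh probe set bears the suffix _x_at, and those without a suffix were below the floor, the brightest of them at 129 and 69.9. The lower ones were Ddit4, an mTORC1 inhibitor induced by stress and hypoxia, at 1623 and 905 (1.79-fold), Trp53i11 at 365 and 222 (1.65-fold) and the mTORC1 regulator Tsc2 at 1008 and 670 (1.504-fold), each in a single probe set that entered. Thbs1, the secreted inhibitor of vessel growth thrombospondin-1, read 523 and 376 in one probe set, a log2 ratio of -0.48, and was lower in the other too. The arrest gene Btg2 read 3194 and 2236, a log2 ratio of -0.51, with its second probe set at -0.94. The proapoptotic Bbc3 read 193 and 223, and the growth arrest gene Gadd45a 976 and 1036, with log2 ratios of 0.21 and 0.09. These lists and the members were not tested against each other.

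**Figure D4:**
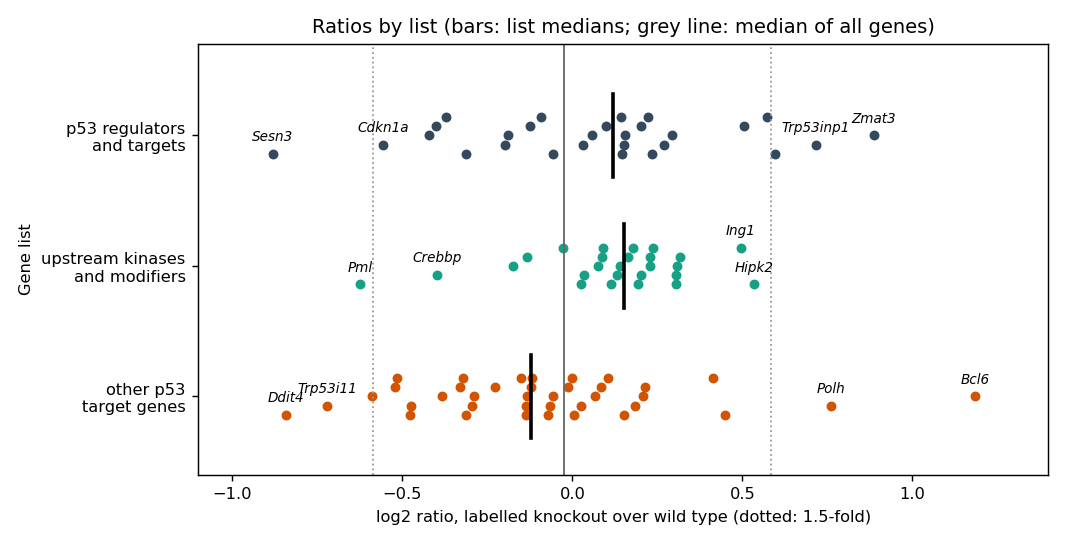
Log2 ratios of the genes that entered from the members (28), the upstream modifiers (26) and the other p53 targets (38), each point 1 gene, stacked in height only to avoid overlap. The list medians are 0.12, 0.15 and -0.12, the median of all genes is the grey line at -0.03, and Bcl6 at 1.18 lies furthest right.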

How the data were processed

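The deposited values were linear probe-set intensities of 2 arrays, 1 per group, from 5 ug of total RNA each. Per the submitters' processing notes the Affymetrix software GCOS 1.4 was used; no settings are stated there. With the top and bottom 2% of probe sets trimmed, the mean signal was 500.0 on both arrays, so each had been scaled as a whole. Detection calls were not used here, so a floor at the 50th percentile stood in for them. All 68 probe sets of the members matched the RefSeq gene table by Entrez ID with the same symbol.

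Ratios were taken with pandas 2.3.3 on the log2 scale with no pseudocount, and the loess was that of statsmodels 0.14.6 with a span of 0.4. Members and lists were chosen with earlier results of these data known. All members are named, with signals for Mdm2, Cdkn1a, the 2 highest and 2 lowest of each role group and those past 1.5-fold. From the further lists Thbs1, genes past 1.5-fold and the 2 highest and 2 lowest are named. Atm, Atr, Btg2, Bbc3, Gadd45a and the marker genes were chosen after their values were seen. The calculation was tested on simulated arrays whose altered genes were changed by more than any member here. That test counted calls at 2-fold and does not bear on calls at 1.5-fold or on signs. Precision is limited by how few arrays there are. With 1 array per group, no p-value and no error between animals can be given.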

Additional observations from a re-analysis of the deposited data

How the results depend on the processing

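There were 10 alternatives for scaling, floor, pseudocount and probe set, and 2 chosen after seeing the data. Of the 28 members, 20 kept their sign wherever they had a value. A floor or a pseudocount cannot turn the sign of a probe set, and the 2 added alternatives only left genes out. For the 11 members with 1 probe set that entered, a choice of probe set could not turn it either. The count of 20 is therefore no measure of how firm these signs are. The other 8 were the members with an opposite probe set, and each changed sign under a choice of probe set. When each gene was read from its least changed probe set, Sesn3 turned to 0.13, Trp53inp1 to -0.0539 and the median over members to 0.0334. That median was -0.0613 with the median over probe sets. The count of members at least 1.5-fold lower, 1 as reported, was 4 of 31 under a floor at the 30th percentile, beside 12.0% of all genes. It was 5 of 33 with no floor, beside 19.1%, and 2 of 28 with a pseudocount of 50, beside 7.30%. It was 0 with the median over probe sets, the least changed probe set, and only genes that had no opposite probe set (added). These counts stood beside 5.36%, 4.58% and 7.29% of all genes. With no floor 1 member of 33, Pmaip1, was 2-fold lower, at signals of 18.4 and 3.17, beside 10.4% of all genes. The members at least 1.5-fold higher numbered 2 to 4 in all alternatives, beside 2.19% to 10.6% of all genes. The median of the death and survival group, -0.12, was 0.01 under loess and -0.42 with no floor, and that of the direct regulators, 0.16, was -0.11 with the median over probe sets.

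The counts of all genes past 1.5-fold, 547 higher and 731 lower, were 939 and 1796 when the floor was the 30th percentile, 365 and 241 when it was the 70th, and 1932 and 3470 with no floor. Higher genes numbered 322 with the median over probe sets, 256 with the least changed probe set and 352 without opposite probe sets. Past 2-fold, 69 higher and 103 lower became 203 and 505, 37 and 25, and 967 and 1884 under the same floors, with 61 lower under loess, 189 lower with a pseudocount of 50, and 42 and 39 higher under the first 2 of those probe set choices. No paired analysis was possible because each group holds 1 sample. No replicate could be left out. Dim genes are limited by background, since the floor lies at the median signal.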
